A study of Mus musculus with 9 samples.

Results

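Fc receptors bind the constant part of antibodies and give the cell that carries them a signal about what the antibody has coated. The genes described here were the mouse Fc gamma receptors Fcgr1, Fcgr2b, Fcgr3 and Fcgr4, their shared signalling chain Fcer1g and the Fc receptor-like gene Fcrls, which were chosen by symbol and not by their values. They were 6 of the 31053 genes in the count matrices, and all 6 were detected and passed the filter on low counts in microglia-like cells. Fcgr1 encodes the high-affinity IgG receptor, and Fcgr3 and Fcgr4 encode activating receptors of lower affinity. These receptors signal through Fcer1g, a small adaptor chain with an ITAM, the tyrosine motif that recruits the kinase Syk. Fcgr2b encodes the inhibitory IgG receptor, whose ITIM motif recruits phosphatases that oppose the activating signal. Fcrls encodes an Fc receptor-like protein and is widely used as a marker of microglia.

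Transcripts were counted in CD11b+ cells sorted from the brains, without the cerebellum, of female C57BL/6 mice aged 5 months, with the 10x Genomics 3′ single-cell platform. Ctrl mice were untreated (3 libraries of 1 brain each), D0 mice ate PLX5622, an inhibitor of the CSF1 receptor on which microglia depend, at 1200 mg/kg of diet for 14 days (3 libraries of 2 pooled brains), and D2 mice then returned to control diet for 2 days (3 libraries of 2 pooled brains). All mice were wild type, and every suspension passed myelin depletion and an antibody block of the proteins of Fcgr2b and Fcgr3 before sorting, and its effect on the RNA was not tested. The number of brains per library differed between Ctrl and both other groups, so that pooling and treatment cannot be told apart.

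Of 36391 barcodes, 30463 passed the filters on cells, with a median of 4810 to 9243 UMIs per cell in the 9 libraries, and pairs of libraries shared 1 to 8 barcodes. Library D2-3 stood apart and was left out by the study. It held 759 microglia-like and 357 nonclassical monocyte-like cells among its 1808 cells, and 680 of those microglia-like cells were placed in dividing clusters. The results below rest on the other 8 libraries with 28655 cells, and values of D2-3 or with it in the fit are given beside the changes in D2 that passed a test. Classes of cells were named from marker genes, without the 6 receptor genes in the clustering. The largest were microglia-like (22123 cells), neutrophil-like (1174), endothelial-like (903), dendritic cell-like (416), mural-like (303) and classical monocyte-like (255), and 2650 cells stayed unnamed. The 9 microglial markers were detected in the microglia-like cells of every library.

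On chromosome 1, 4 of the genes lie within 275.749 kb in mm10. Fcgr2b (chr1:170958617-170976547, minus strand), Fcgr4 (chr1:171018920-171029761, plus strand) and Fcgr3 (chr1:171051174-171064935, minus strand) together span 106.319 kb, and Fcer1g follows at chr1:171229572-171234365 on the minus strand. Fcrls (chr3:87250758-87263738) and Fcgr1 (chr3:96282909-96293969) lie on the minus strand of chromosome 3. Fcgr2b overlaps the antisense gene Gm38204, and whether the counting used strand is not given in the sources used here. Transcripts of Fcgr2b and Fcgr3 share 233 stretches of 31 bases, 13.4% of those of the shorter gene, but none in the last 500 bases, the part that a 3′ library reads. No other pair of the 6 genes shares such a stretch.

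The 150 bases before the annotated RefSeq start (GRCm38.p6) are shown for the 3 genes whose level passed a test between conditions in microglia-like cells. By the GENCODE positions given above, the windows of Fcgr2b and Fcrls lie inside the gene, so the annotations place the start differently. Capitals mark the letters CTTCCTC, or GAGGAAG on the other strand, a purine-rich motif of the kind bound by ETS-family factors. This motif was chosen after the letters had been read.

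Fcgr4, chr1:171018776-171018925, plus strand: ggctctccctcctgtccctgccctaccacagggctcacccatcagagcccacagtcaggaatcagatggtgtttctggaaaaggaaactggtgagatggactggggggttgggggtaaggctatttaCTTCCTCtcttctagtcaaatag
Fcrls, chr3:87263525-87263674, minus strand: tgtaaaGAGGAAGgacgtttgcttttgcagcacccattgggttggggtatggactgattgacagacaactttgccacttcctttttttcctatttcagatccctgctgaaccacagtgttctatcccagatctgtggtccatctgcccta
Fcgr2b, chr1:170976072-170976221, minus strand: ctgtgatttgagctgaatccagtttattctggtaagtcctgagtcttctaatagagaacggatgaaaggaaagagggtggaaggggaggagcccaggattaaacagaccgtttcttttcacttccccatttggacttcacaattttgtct

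The motif lay 23 bases before the start of Fcgr4 and, on the other strand, 144 bases before that of Fcrls. It was also found 56 bases before the start of Fcgr1 and 7 or 16 bases before the 2 annotated starts of Fcgr3, and it was not in the windows of Fcgr2b and Fcer1g. Of all 32851 promoter windows of this length, 6.85% hold it. Only these exact letters were counted, so a window without them may hold other motifs of this kind. The windows of Fcgr3 also lie inside its gene by the GENCODE positions, so the distances hold for the RefSeq starts only.

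The levels of the receptors differed between classes of cells. They are given as CPM, the UMIs of a gene scaled to a fixed sum of all UMIs, of a class in a library, as mean ± SD over libraries with at least 20 cells of the class. A 3′ library counts 1 tag per transcript whatever its length. Whether different genes are captured and counted equally well was not tested, so levels of different genes are compared as UMIs only. Classes came from clusters of the same cells, so the differences between them are a description with no test.

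Fcgr3 was the most abundant activating receptor in most classes, and its level was highest in microglia-like cells (1112 ± 177 CPM, n = 8). Border-associated macrophage-like cells, the macrophages of the meninges and perivascular spaces, had 941 ± 192 CPM (n = 2), both from Ctrl libraries, a range that overlapped that of microglia-like cells over all groups. Neutrophil-like cells (444 ± 149, n = 7) and classical monocyte-like cells (369 ± 56.8, n = 5) followed, and their ranges overlapped too. Fcgr1 had the same first classes, with 380 ± 49.954 CPM in microglia-like and 349 ± 21.5 CPM in border-associated macrophage-like cells, again with overlapping ranges. Within Ctrl the ranges of both classes lay apart, at 1127 to 1316 CPM of Fcgr3 in microglia-like cells against 806 and 1077 CPM, and at 391 to 461 CPM of Fcgr1 against 333 and 364 CPM. Classical monocyte-like cells had 145 ± 48.2 CPM of Fcgr1, and their range did not overlap with that of the macrophages.

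Fcgr4 had another order. Nonclassical monocyte-like cells, the patrolling monocytes of the blood, had 511 ± 198 CPM (n = 3), with 448 in Ctrl-2, 733 in Ctrl-3 and 353 in D0-3. Neutrophil-like cells came next with 68.8 ± 31.5 CPM (n = 7). Both ranges lay apart from each other and above those of all other classes. Microglia-like cells had 24.7 ± 8.77 CPM of Fcgr4 (n = 8), close to the 27.8 ± 14.8 CPM of border-associated macrophage-like cells (n = 2). Fcgr4 was thus the least abundant of the 6 genes in microglia-like cells and the most abundant of the IgG receptors in nonclassical monocyte-like cells, where Fcgr3 had 166 ± 38.5 CPM.

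The inhibitory receptor Fcgr2b was highest in border-associated macrophage-like cells, with 419 CPM in Ctrl-1 and 448 CPM in Ctrl-3. Dendritic cell-like cells had 320 ± 42.3 CPM (n = 5) and microglia-like cells 255 ± 49.4 CPM (n = 8), with overlapping ranges. Classical monocyte-like cells had 178 ± 15.9 CPM (n = 5), below the range of microglia-like cells. In neutrophil-like cells the level of Fcgr2b was 55.2 ± 24.5 CPM (n = 7).

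The shared chain Fcer1g was found in every class of leukocytes. Its level was 4950 ± 373 CPM in nonclassical monocyte-like cells (n = 3) and 3948 ± 301 CPM in NK cell-like cells (n = 2), the lymphocytes in which the chain also serves natural cytotoxicity receptors. It was similar in microglia-like (2558 ± 122, n = 8) and neutrophil-like cells (2523 ± 196, n = 7), which overlapped, and lower in dendritic cell-like cells (1476 ± 122.6, n = 5). Fcrls was carried by microglia-like (1689 ± 674, n = 8) and border-associated macrophage-like cells (1589 ± 196, n = 2). It reached 10.9569 CPM in classical monocyte-like cells on average. The microglial mean includes the treated libraries, and within Ctrl microglia-like cells had 2290 to 2614 CPM against 1450 and 1728 CPM in border-associated macrophage-like cells, with no overlap. Over all groups and without Ctrl-1 or Ctrl-2 the order of the first 2 classes turned for Fcrls, and no other gene changed its highest class when any single library was left out.

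**Figure D1:**
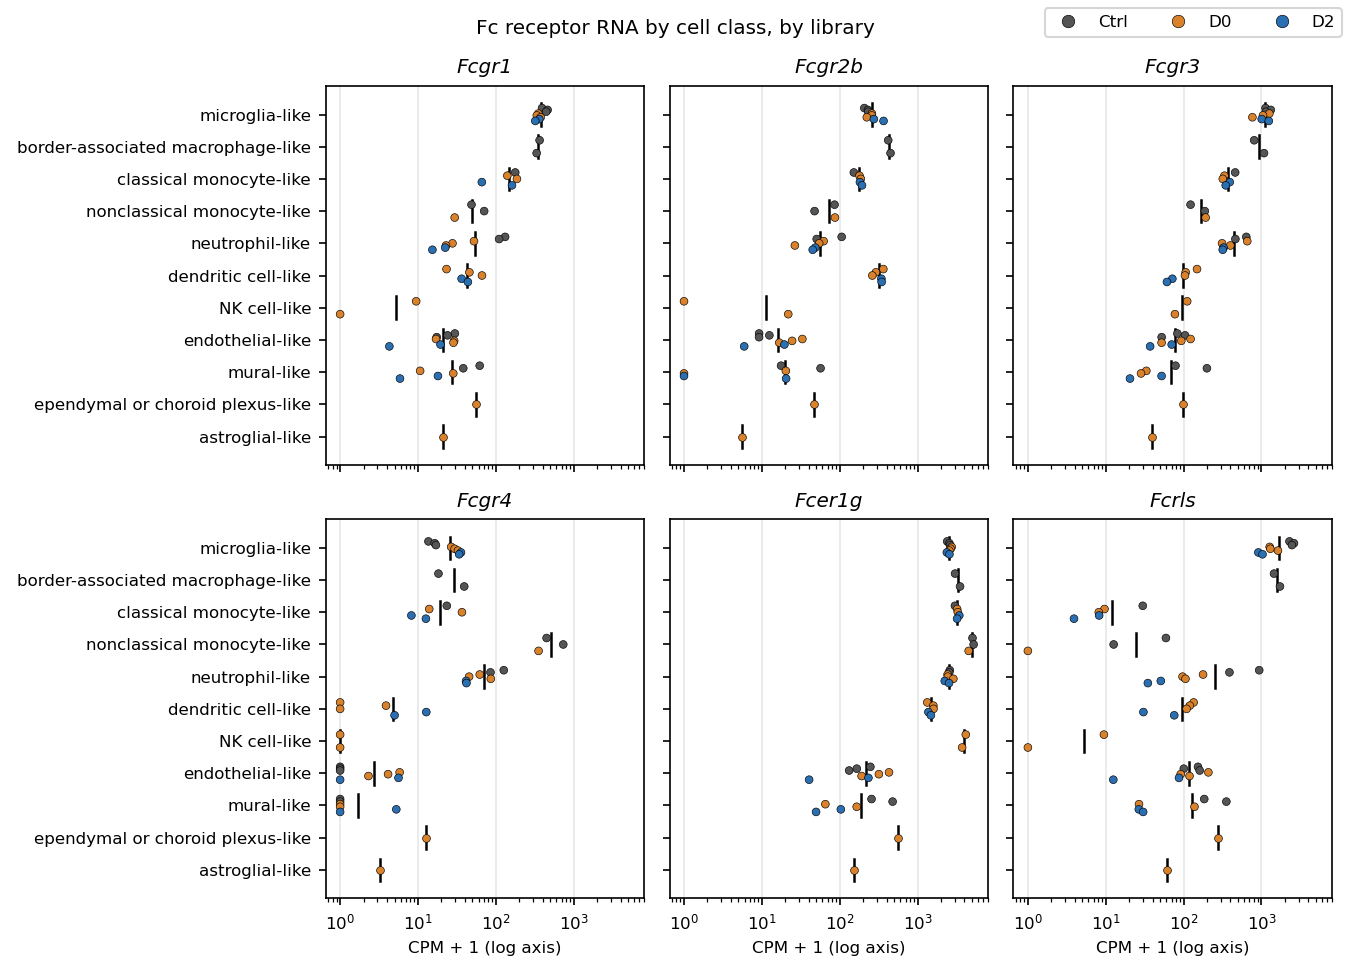
Level of each gene (CPM + 1, log axis) by cell class. Points are libraries coloured by condition, and lines are means over libraries with at least 20 cells. Fcgr1, Fcgr3 and Fcrls peak in microglia-like cells, Fcgr2b in border-associated macrophage-like cells, and Fcgr4 and Fcer1g in nonclassical monocyte-like cells.

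Endothelial-like cells, which are not known as a source of Fcer1g or Fcrls, were taken as a guide to free RNA. There the levels ranged from 1.73 CPM of Fcgr4 to 219 CPM of Fcer1g on average. After each cell was thinned to 2000 UMIs, 85.7% of microglia-like cells had a UMI of Fcgr3 on average over libraries, against 8.01% of endothelial-like cells. For Fcgr1 the shares were 52.5% and 2.31%, for Fcgr2b 38.8% and 2.43%, for Fcgr4 4.58% and 0.244%, for Fcer1g 98.8% and 12.4%, and for Fcrls 86.7% and 8.03%. Before thinning, the median depth of a library was 5400.5 to 10547.5 UMIs per microglia-like cell and 2857.5 to 6619 per endothelial-like cell. In D0-1, D0-2, D0-3, D2-1 and Ctrl-3, 1.74 to 2.36% of thinned endothelial-like cells had UMIs of both Fcgr2b and an activating receptor. Independent detection would give 0.113 to 0.465%, and Ctrl-1, Ctrl-2 and D2-2 had no such cells. Whether the receptor UMIs of endothelial-like cells are free RNA alone was not tested. The Fcgr3 level of NK cell-like cells (93.3 ± 23.9 CPM, n = 2) lay within the range of endothelial-like cells (76.0 ± 29.3 CPM, n = 8). Fcrls had 4.24 CPM in NK cell-like and 116 CPM in endothelial-like cells, and Fcgr1 had 4.24 and 20.2 CPM. The part of free RNA in the Fcgr3 level of NK cell-like cells was not tested.

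The balance of activating and inhibitory receptors was expressed as the UMIs of Fcgr1, Fcgr3 and Fcgr4 per UMI of Fcgr2b. Dendritic cell-like cells had fewer activating than inhibitory UMIs in each library with enough cells, with ratios of 0.469, 0.526 and 0.645 in D0 and of 0.345 and 0.310 in D2 (0.824 in D2-3). No other leukocyte class had a ratio under 1 in any library. Border-associated macrophage-like cells had 2.83 and 3.23, and classical monocyte-like cells had 2.56 to 4.36 (n = 5). The ratios of nonclassical monocyte-like (6.67 to 21.3, n = 3) and neutrophil-like cells (7.14 to 19.8, n = 7) reached the highest values, on as few as 4 and 10 UMIs of Fcgr2b in a library. Endothelial-like cells had a pooled ratio of 5.72, near the 6.07 of microglia-like cells.

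**Figure D2:**
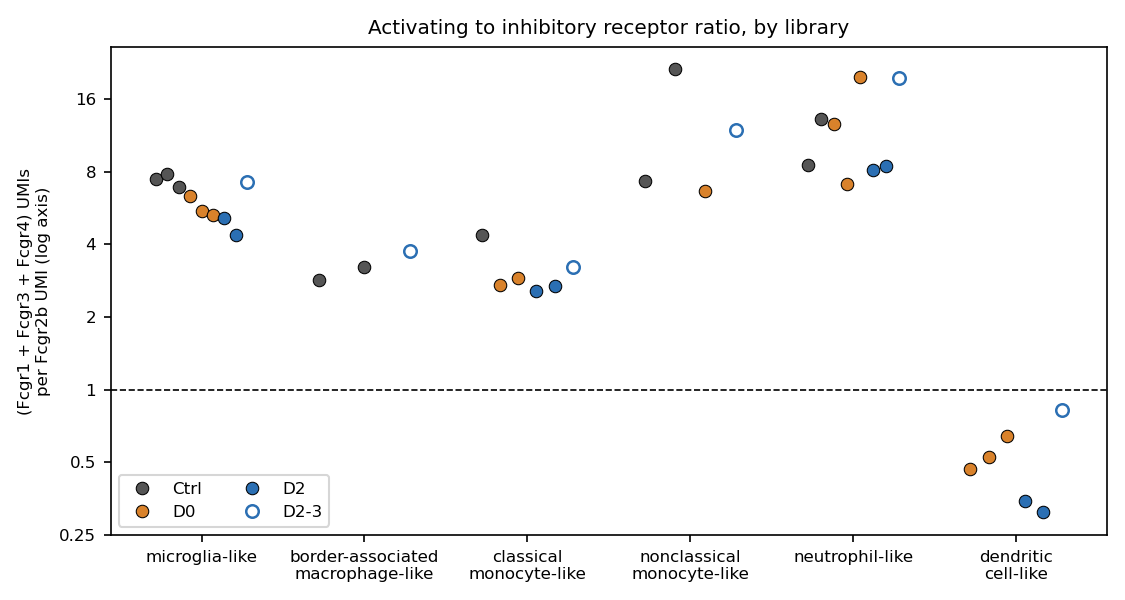
Activating receptor UMIs (Fcgr1, Fcgr3 and Fcgr4) per Fcgr2b UMI in each library (log axis) by cell class, coloured by condition. The dashed line marks equal counts, and open circles are D2-3, which the study left out. Dendritic cell-like cells lie below 1, and in microglia-like cells the Ctrl libraries (6.88 to 7.82) lie above D0 (5.28 to 6.35) and the 2 D2 libraries used (5.13 and 4.37).

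In microglia-like cells, depletion and early repopulation were compared with Ctrl to ask how the receptors differ in the cells that persist under PLX5622 and in those present 2 days after its withdrawal. In the gene-by-gene results that follow directly, receptor levels per library are CPM on TMM-scaled library sizes, except where given as before scaling. Levels in clusters or smaller groups of cells, in other classes and of pathway genes are CPM before TMM scaling, as are marker sums. Changes were tested in edgeR on UMIs summed per library. Levels and changes rest on shares of the RNA of these cells, so that a change in RNA content per cell is not seen.

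Fcgr4 rose in both groups. The 3 Ctrl libraries had 11.2, 14.7 and 15.1 CPM, the D0 libraries 26.5, 32.0 and 34.0 CPM, and the D2 libraries 34.2 and 33.6 CPM. Every treated library lay above every Ctrl library. The log2 change was 1.18 ± 0.154 (SE) in D0 and 1.31 ± 0.169 in D2 compared to Ctrl, with edgeR adjusted p = 0.000747 and 0.000781. With D2-3 in the fit the change in D2 was 1.30 (adjusted p = 0.00313).

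Fcrls fell in both groups. Ctrl libraries had 2024, 2502 and 2323 CPM, D0 libraries 1317, 1458 and 1751 CPM, and D2 libraries 898 and 1055 CPM. The groups did not overlap, and D2 lay below D0. The log2 change was -0.60 ± 0.137 in D0 (edgeR adjusted p = 0.0159) and -1.23 ± 0.160 in D2 (adjusted p = 0.000835), or -1.17 with D2-3 (adjusted p = 0.00619). The D0 call was lost without Ctrl-2, without Ctrl-3, without D0-2 and with D2-3 in the fit. The summed level of the 9 microglial markers was lower too. Before TMM scaling, this sum lay between 19258 and 23598 CPM in Ctrl, between 13916 and 15796 CPM in D0 and between 11641 and 12531 CPM in D2. Its part in the Fcrls result was not tested.

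Fcgr2b, the inhibitory receptor, rose in D2. It had 182, 219 and 218 CPM in Ctrl, 266, 288 and 239 CPM in D0, and 269 and 373 CPM in D2. On this scale, again no Ctrl library overlapped with a treated one. Before TMM scaling, D0-3 had 222 CPM, below Ctrl-2 and Ctrl-3 with 229 and 231 CPM. The log2 change was 0.36 ± 0.147 in D0, which did not pass the test (edgeR adjusted p = 0.122), and 0.64 ± 0.163 in D2, which did (adjusted p = 0.0251). The D2 call rested on D2-2. Without that library the change was 0.38 with adjusted p = 0.235, and with D2-3, which had 85.3 CPM before scaling, it was 0.31 with adjusted p = 0.603. It was also lost without Ctrl-2 and without Ctrl-3.

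The remaining activating receptors did not pass the test. Fcgr1 had 346, 442 and 417 CPM in Ctrl, 362, 376 and 404 CPM in D0, and 356 and 328 CPM in D2. Fcgr3 had 996, 1260 and 1071 CPM in Ctrl, 1303, 1173 and 822 CPM in D0, and 992 and 1270 CPM in D2. For both genes the groups overlapped, and the log2 changes of Fcgr3 were -0.01 ± 0.1804 and 0.03 ± 0.202 (edgeR adjusted p = 0.970 and 0.940). The adaptor Fcer1g had 2122, 2447 and 2465 CPM in Ctrl, 2829, 2983 and 2751 CPM in D0, and 2342 and 2622 CPM in D2. On this scale all D0 libraries lay above Ctrl and D2 did not, with log2 changes of 0.28 ± 0.103 in D0 (adjusted p = 0.0842) and 0.08 ± 0.115 in D2 (adjusted p = 0.668). Before TMM scaling, D0-3 had 2558 CPM of Fcer1g, below the 2612 CPM of Ctrl-3. With the replicate number as a block, Fcer1g passed in D0 at 0.29 ± 0.0856 (edgeR adjusted p = 0.0465), where 22.6% of genes did. D0 and Ctrl libraries of the same number deviated together, but so did Ctrl-3 and D0-2 (r = 0.23).

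**Figure D3:**
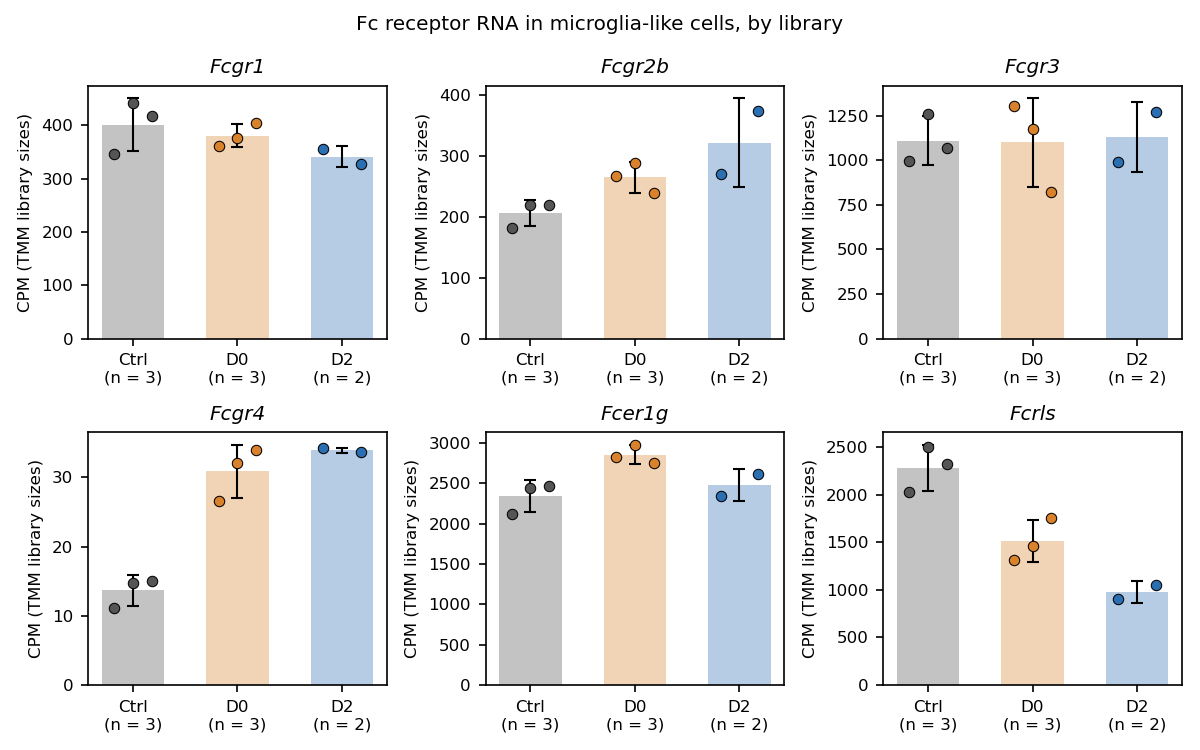
Level of each gene in microglia-like cells (CPM on TMM-scaled library sizes) in Ctrl (n = 3), D0 (n = 3) and D2 (n = 2). Points are libraries, bars are means and error bars are SD. Fcgr4 lies between 11.2 and 15.1 CPM in Ctrl and between 26.5 and 34.2 CPM in all treated libraries, and Fcrls falls from Ctrl through D0 to D2.

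Of the 6 genes, 2 passed the test between D0 and Ctrl, where 19.4% of 12450 genes did, and 3 between D2 and Ctrl, where 17.6% did. In the direction of each, 11.9% of genes rose and 7.49% fell in D0, and 10.1% rose and 7.43% fell in D2. The 2 comparisons share the Ctrl libraries. Between D2 and D0, 0 of the 6 genes and 0.0% of all genes were called by edgeR, with 840 genes at an unadjusted p under 0.05, and DESeq2 called 25 genes and none of the 6. The lowest unadjusted p of the 6 was that of Fcrls, with a log2 change of -0.63 ± 0.156 (adjusted p = 0.703).

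The scale of all genes mattered for small changes. With library totals in place of TMM, an alternative added after the data were seen, the median gene moved by -0.27 in D0 and -0.14 in D2, and calls shifted from 1479 higher and 932 lower to 1088 higher and 2776 lower in D0, and from 1260 and 925 to 1028 and 1503 in D2. The called receptors kept their direction and their calls. Fcgr4 then rose by 0.97 in D0 and 1.204 in D2, Fcrls changed by -0.81 and -1.34, and Fcgr2b rose by 0.52 in D2. Files of Ctrl-2 and Ctrl-3 name a later Cell Ranger version than those of the other libraries used. With the version as a term, log2 changes of Fcgr4 were 1.47 and 1.60 and both passed, those of Fcrls were -0.42 (edgeR adjusted p = 0.147) and -1.05 (adjusted p = 0.0115), and that of Fcgr2b in D2 was 0.82 (adjusted p = 0.0495). Within the earlier version Ctrl-1, the only Ctrl library, had less Fcgr4 and Fcgr2b and more Fcrls than all 5 treated libraries.

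**Figure D4:**
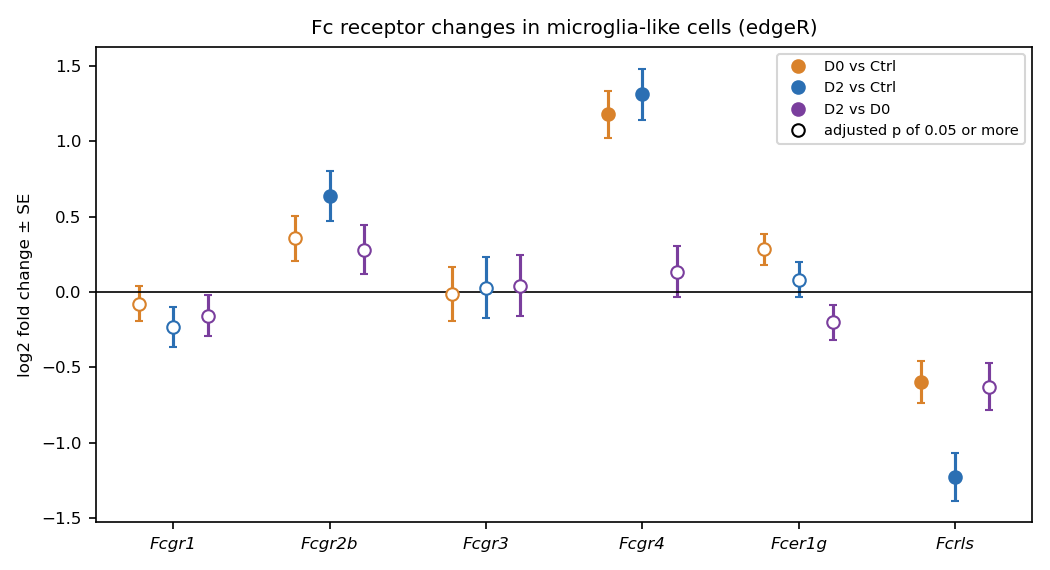
log2 fold change ± SE (edgeR, UMIs summed per library) of each gene in microglia-like cells for the 3 comparisons. Filled points have an adjusted p under 0.05, which Fcgr4 and Fcrls reach in D0 and D2 and Fcgr2b in D2.

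Since Fcgr4 was highest in monocyte- and neutrophil-like cells, their RNA was measured in the microglia-like cells. The neutrophil genes S100a8 and S100a9 were present there at up to 0.0672% of their level in neutrophil-like cells, and the nonclassical monocyte genes Ace and Treml4 at up to 0.202% of their level in nonclassical monocyte-like cells. RNA carried at those shares would bring at most 0.0377 and 0.842 CPM of Fcgr4, beside the 12.6 to 34.7 CPM measured before TMM scaling. These values take all RNA of a class to be carried at the share of these markers. The part of carried RNA in the Fcgr4 change was not tested. Over whole marker lists, the 10 neutrophil markers had sums of 209 to 288 CPM in the Ctrl libraries, 192 to 407 CPM in those of D0 and 280 to 440 CPM in those of D2. For the 8 nonclassical monocyte markers the sums were 291 to 339, 287 to 299 and 251 to 270 CPM. Most of both sums came from genes that microglia-like cells held themselves. Csf3r alone had 227 CPM and Gngt2 288 CPM in the pooled Ctrl cells, and neither is among the 24 markers used next. For the 8 classical monocyte markers the sums were 12.2 to 23.4, 16.4 to 32.9 and 26.6 to 37.5 CPM. In microglia-like cells without a UMI of 24 of the neutrophil and monocyte markers, also an alternative added later, Fcgr4 rose by 1.00 in D0 and 1.32 in D2 (edgeR adjusted p = 0.00493 and 0.00280). The Fcgr2b change of D2 was 0.55 in those cells with adjusted p = 0.0623, which no longer passed.

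The levels before TMM scaling were also compared within clusters of microglia-like cells. In 6 clusters with enough cells of each group, all D0 libraries lay above all Ctrl libraries for Fcgr4 in 5, for Fcer1g in 4 and for Fcgr2b in 3 clusters, and all lay below for Fcrls in 6 and for Fcgr1 in 2. Over all genes and clusters, 7.03% of cases lay wholly above and 21.6% wholly below in D0. In D2 the counts above were 5 for Fcgr4, 4 for Fcgr2b and 2 for Fcer1g, where 12.3% of all cases did so, and the counts below were 6 for Fcrls and 3 for Fcgr1, where 21.8% did. For Fcgr3 it was 0 clusters in either direction in both groups. These clusters share their libraries, so that they are not separate replicates. In cluster 5, named after its values were seen, Fcgr4 had 9.08 to 18.8 CPM in Ctrl libraries, 34.3 to 37.3 CPM in those of D0 and 38.5 and 46.2 CPM in those of D2.

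The ratio of activating to inhibitory transcripts in microglia-like cells was 7.43, 7.82 and 6.88 in Ctrl, 6.35, 5.49 and 5.28 in D0, and 5.13 and 4.37 in D2. Each group lay below the one before it, without overlap, but D2 and D0 overlapped in some alternatives given at the end. The mean log2 ratio differed by -0.37 between D0 and Ctrl (two-sided exact permutation test, p = 0.1, the smallest that 3 against 3 libraries allow), by -0.64 between D2 and Ctrl and by -0.26 between D2 and D0 (exact p = 0.2 for both, the smallest that 2 against 3 allow). With this number of libraries, exact tests could not pass the threshold in any of these 3 comparisons. D2-3 had a ratio of 7.23 on far lower levels, with 301 CPM of Fcgr3 and 85.3 CPM of Fcgr2b, and with it the difference between D2 and D0 was -0.06 (exact p = 0.8).

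Transcripts of both kinds were found together about as often as their separate shares give. In microglia-like cells thinned to 2000 UMIs, 31.2 to 35.2% of Ctrl cells, 32.4 to 38.7% of D0 cells and 37.6 and 47.2% of D2 cells had UMIs of Fcgr2b and of an activating receptor. Independent detection would give 31.4 to 34.9%, 31.8 to 38.5% and 37.0 and 46.6%. Of Ctrl cells, 2.57 to 3.57% had neither kind and 0.981 to 2.09% had Fcgr2b alone. Since most cells had an activating UMI, the share with both is held near the share with Fcgr2b. The comparison therefore cannot tell whether the 2 kinds go together in a cell. Cells with activating receptors alone made up 61.3 to 63.1% in Ctrl, 55.2 to 56.2% in D0 and 52.3 and 47.3% in D2. In D2-3, 9.94% of cells had both and 30.4% had neither.

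Dividing microglia-like cells, in clusters led by mitosis genes, had less Fcgr3 than other microglia-like cells of the same library. In the 5 of the D0 and D2 libraries used that had enough dividing cells, Fcgr3 stood at 649, 536, 433, 766 and 651 CPM in dividing cells against 1340, 1159, 849, 1051 and 1379 CPM in the others, log2 differences of -0.46 to -1.11. Fcer1g (-0.28 to -0.35), Fcgr4 (-0.41 to -1.48) and Fcgr2b (-0.12 to -0.43) were lower in dividing cells in 5 of 5 libraries too. D2-3, with 680 dividing and 79 other cells, had smaller differences of -0.20 for Fcgr3, -0.24 for Fcgr4 and -0.06 for Fcer1g, and -0.44 for Fcgr2b. Fcgr1 differed by -0.17 to 0.16 and Fcrls by -0.78 to 0.20, with both signs. The split came from clusters of the same cells, so no test was made. The share of all genes lower in dividing cells was not measured, so the differences cannot be called particular to these receptors. With non-dividing cells alone the calls of Fcgr4 and Fcrls in both groups and of Fcgr2b in D2 were kept.

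MAC2, encoded by Lgals3, is a galectin whose cells the study followed. The study took cells with Lgals3 well above its mean, largely from its cluster with MHC genes. Here any Lgals3 UMI counted, and only in cells named microglia-like, so these are not the same cells as the study's. Among microglia-like cells thinned to 2000 UMIs, those with a Lgals3 UMI had less Fcgr1 than those without in 5 of 5 libraries (log2 -0.08 to -0.75), and likewise for Fcgr2b (-0.12 to -1.21), Fcgr3 (-0.14 to -0.66) and Fcrls (-0.12 to -0.62). Fcgr4 and Fcer1g went both ways. The share of all genes lower in cells with a Lgals3 UMI was not measured. These groups held 25 to 131 cells with Lgals3 per library, and the -1.21 of Fcgr2b came from D0-3, with 25. Here 10 CPM were added to each level before the log2.

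**Figure D5:**
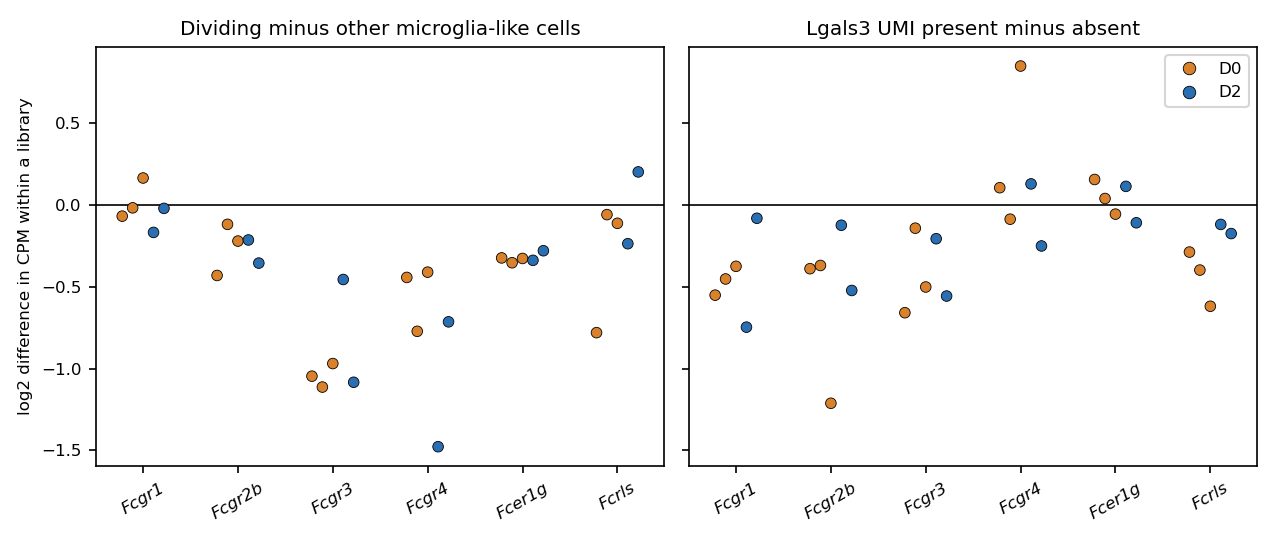
log2 difference in CPM of each gene within a library, between dividing and other microglia-like cells (left) and between microglia-like cells with and without a Lgals3 UMI (right), for 3 D0 and 2 D2 libraries. On the right only, 10 CPM were added to each level before the log2. Fcgr3 is 0.46 to 1.11 lower in dividing cells, and Fcgr1, Fcgr2b, Fcgr3 and Fcrls lie below 0 in every library on the right.

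Outside microglia-like cells, 52 tests of a gene in a class and comparison could be made in 5 classes, and 2 passed, both in neutrophil-like cells between D2 and Ctrl, where 2.7% of 4557 genes were called. In the other comparisons 2.63% of genes were called in classical monocyte-like and 0.0157% in dendritic cell-like cells (D2 against D0), 0.0878% in neutrophil-like cells (D0 against Ctrl), 0.0122% and 0.0608% in endothelial-like cells and 0.0235% and 0.0939% in mural-like cells (D0 and D2 against Ctrl), and none in the remaining 3. Fcrls had 935 and 387 CPM in Ctrl-2 and Ctrl-3 and 49.96 and 33.8 CPM in D2, a log2 change of -3.60 ± 0.408 (edgeR adjusted p = 0.00363). Fcgr1 had 131 and 109 CPM in Ctrl and 21.4 and 14.3 CPM in D2, a change of -2.41 ± 0.416 (adjusted p = 0.0195). The 9 microglial markers moved with both, with sums of 4083 to 7569 CPM in Ctrl and 470 to 826 CPM in D2. Neutrophil-like cells of Ctrl without any UMI of those markers (35 cells) had 0 UMIs of Fcgr1 and 44.5 CPM of Fcrls, against 136 and 820 CPM in the other 100 cells. Ctrl-1, with 15 neutrophil-like cells, had 0 UMIs of Fcgr1 and 2 of Fcrls, and with it in the fit neither passed (edgeR adjusted p = 0.161 and 0.124). Neither passed without D2-2 (adjusted p = 0.225 and 0.109), and Fcgr1 did not without Ctrl-2 or without D2-1 (adjusted p = 0.0928 and 0.0705). D2-3 had 16.3 CPM of Fcgr1 and 78.2 CPM of Fcrls, and with it both passed (adjusted p = 0.00567 and 0.00325). With the replicate number as a block, 3 genes also passed in mural-like cells of D0, where mean levels over libraries were near those of endothelial-like cells. These were Fcgr3 at -2.07, Fcer1g at -1.76 and Fcrls at -1.96 (edgeR adjusted p = 0.0322, 0.00393 and 0.00690), where 0.869% of genes passed.

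Whether a receptor changed differently in another class than in microglia-like cells was asked in 66 tests of the difference itself, of which 9 passed. Each of the 9 lost its call in 1 or more fits that left out a library or included D2-3, alternatives added after the data were seen. In neutrophil-like cells Fcgr4 had 125 and 84.3 CPM in Ctrl, 61.1, 44.4 and 85.2 CPM in D0, and 40.4 and 40.9 CPM in D2, beside 112 CPM in D2-3. The change from Ctrl to D2 differed from that in microglia-like cells by -2.17 on the log2 scale (edgeR interaction with library as a block, adjusted p = 0.00107), in a test where 3.76% of genes were called. The call was lost with D2-3 (-1.31, adjusted p = 0.566), without Ctrl-2 (adjusted p = 0.276) and without D2-2 (adjusted p = 0.0549). The groups also held different clusters. In cluster 13 Fcgr4 had 125 CPM in Ctrl-2, the only Ctrl library with enough of its cells, 83.4 to 108 CPM in D0 and 56.4 and 95.01 CPM in D2. Cluster 15, at 24.1 to 49.8 CPM, had enough cells in D0-2, D0-3, D2-1 and D2-2 and in no Ctrl library. Neutrophil-like cells without a microglial marker UMI had 178 CPM of Fcgr4 in Ctrl (20 UMIs), 71.5 CPM in D0 and 39.7 CPM in D2. In dendritic cell-like cells Fcgr3 had 148, 105 and 103 CPM in D0 and 70.7 and 60.1 CPM in D2, and its change differed from that in microglia-like cells by -1.12 (edgeR adjusted p = 0.0398, where 0.154% of genes were called). D2-3 also had 60.1 CPM, but with it the difference from microglia-like cells was -0.55 (adjusted p = 0.981), and the call was lost without D0-3 and without D2-2 too (adjusted p = 0.0572 and 1.0). The other differences that passed were those of Fcgr1 and Fcrls in neutrophil-like cells of D2 and 5 in mural-like cells, where 0.931% of genes passed in D0 and 1.05% in D2, compared to Ctrl. None passed in the remaining comparisons, where the share of all genes was 0.353% in classical monocyte-like cells, 0.8% and 0.133% in neutrophil-like cells (D0 against Ctrl and D2 against D0), 3.26%, 3.08% and 0.00775% in endothelial-like cells (D0 and D2 against Ctrl, D2 against D0) and 0.0789% in mural-like cells (D2 against D0).

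Other genes of the pathway were followed in microglia-like cells in lists chosen by function. Of 22 tested genes of ITAM signalling, 4 rose and 2 fell in D0, and 1 rose and 2 fell in D2, beside 11.9% of all genes that rose and 7.49% that fell in D0 and 10.1% and 7.43% in D2. Their median log2 change was -0.08 in D0 and -0.07 in D2, beside -0.05 and -0.02 over all genes. Lat2, an adaptor of the Fc receptor cascade, rose in D0 by 0.71 (edgeR adjusted p = 0.0101), and Rac2, a GTPase of the cytoskeleton and of the oxidative burst, rose by 0.58 (adjusted p = 0.0482). Pik3cg, a catalytic subunit of PI3 kinase, fell in both groups, with log2 changes of -0.77 in D0 and -0.99 in D2 (edgeR adjusted p = 0.0133 and 0.00774). The adaptor Lcp2 fell in D2, with a change of -0.55 (adjusted p = 0.0186).

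Of 19 tested genes of ITIM signalling and other inhibitory receptors, 3 rose and 4 fell in D0, and 6 rose and 5 fell in D2, beside the same shares of all genes, with medians of -0.11 and 0.02. Among those reaching 20 CPM in either group, the inhibitory receptor Cd72 had the largest rise, from 7.87 CPM in Ctrl to 43.3 CPM in D0 and 36.9 CPM in D2, log2 changes of 2.67 and 2.34 (edgeR adjusted p = 4.30e-06 and 1.51e-05). Pirb, a paired inhibitory receptor for MHC class I, rose in D2 by 1.76 (adjusted p = 0.00489). The adaptors Pag1 and Dok1 fell in D0, with log2 changes of -0.60 and -0.51 (adjusted p = 0.0100 and 0.0327), and Dok3 fell in D2, with -1.14 (adjusted p = 0.0341). Of 3 other Fc receptors tested, Fcrl1 fell in both groups, with log2 changes of -1.26 in D0 and -1.36 in D2 (adjusted p = 0.00211 and 0.00340). Of 4 receptors that pair with Fcer1g, 1 rose and 1 fell in D0 and in D2, both under 20 CPM. Of 2 immunoglobulin genes tested, 1 fell in D0 and both fell in D2, with Ighm at 284 CPM in Ctrl and 177 CPM in D2 (log2 change -0.58, adjusted p = 0.0360). Between D2 and D0 no gene of these lists passed.

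Across 11 cell classes, the genes with a pattern most like each receptor were found by Pearson's r of mean log2(CPM + 10) among 11157 genes, as a description. They were Hexa (r = 0.98) for Fcgr1, Cd86 (0.96) for Fcgr2b, Mknk1 (0.97) for Fcgr3, Pilrb1 (0.91) for Fcgr4, Dock2 and Tyrobp (both 0.98) for Fcer1g and Hpgds (0.99) for Fcrls. Among the 6 genes themselves, Fcgr1 and Fcgr3 were most alike (r = 0.87) and Fcgr1 and Fcgr2b next (0.84), whereas Fcgr4 with Fcrls had r = -0.00302. The points share libraries and depth.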

How the data were processed

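Single-cell RNA-seq was made from CD11b+ cells of 9 libraries. The authors deposited, per library, raw UMI counts per gene and barcode, aligned to mm10. Their processing notes name Cell Ranger 3.1.0, and the matrix headers name 3.0.2 in some libraries. A barcode was taken as a cell with a total of 500 to 20000 UMIs, 200 or more detected genes and a mitochondrial share of 10% or less. Cells were clustered by the Leiden method (leidenalg 0.10.2, scanpy 1.11.5, resolution 0.6, 10 principal components) without the 6 receptor genes. Clusters were named from fixed marker lists where at least 3 markers were raised. D2-3 cells were placed by their 30 nearest neighbours. Scrublet called 74 of 28655 cells doublets, a share at which it had not worked. No doublets were therefore removed, and leaving out the top 4% of its scores was an alternative. Sums of UMIs over a class with at least 20 cells in a library entered edgeR 4.0.16 (under R 4.3.3, with TMM, filterByExpr, quasi-likelihood, Benjamini-Hochberg, called at adjusted p under 0.05), in 1 fit of 8 libraries. Alternatives included DESeq2 1.42.0, other scalings and filters, each library left out, D2-3 included, thinning to 2000 UMIs and other clusterings. The fit recovered 99% of genes changed by 1 on the log2 scale and 100% of those changed by 2 on data simulated for D0 against Ctrl with 12450 genes. There 200 genes were changed, and the spread was set equal for all genes, not taken from the data. These shares are therefore not the power of the real comparison.

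Genes named from the pathway lists were the 3 called genes with the largest change per list and comparison among those reaching 20 CPM in either group. The receptors and lists were chosen with earlier results of these data known. Labels number the libraries of each condition. Deviations of same-numbered Ctrl and D0 libraries correlated (r = 0.41, 0.23 and 0.18), so D0 against Ctrl was also given with that number as a block. Of the Ctrl and D0 pairs with different numbers, Ctrl-3 and D0-2 also had r = 0.23, and the others lay between -0.34 and 0.07. For D2 the correlations were 0.05 and 0.09 with Ctrl and -0.12 and 0.27 with D0, and D2 was not treated as paired. Nothing in the sources ties a number to a shared litter or day. Promoter sequences are from RefSeq and gene positions from GENCODE M21. Each library is 1 or 2 brains, and p-values measure the spread between these libraries.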

Additional observations from a re-analysis of the deposited data

Results flagged for a closer look

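Changes of receptors differed between classes of cells in 9 of 66 tests of the difference itself (edgeR interaction of class and condition with library as a block). Between D2 and Ctrl, the change in neutrophil-like cells minus that in microglia-like cells was -2.09 for Fcgr1 (adjusted p = 0.00208), -2.17 for Fcgr4 (adjusted p = 0.00107) and -2.25 for Fcrls (adjusted p = 9.80e-05), all on the log2 scale. Between D2 and D0, the change of Fcgr3 in dendritic cell-like cells minus that in microglia-like cells was -1.12 (adjusted p = 0.0398). With D2-3 in the fit all 4 lost their call, with differences of -1.87, -1.31, -1.62 and -0.55 (edgeR adjusted p = 0.168, 0.566, 0.296 and 0.981), and without D2-2 as well.

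In mural-like cells, the pericytes and smooth muscle of vessels, the change minus that in microglia-like cells was -2.14 for Fcgr3 and -1.96 for Fcer1g between D0 and Ctrl (edgeR adjusted p = 0.00363 and 0.000478), where 0.931% of genes were called. Between D2 and Ctrl it was -1.89 for Fcgr3, -2.23 for Fcer1g and -1.99 for Fcrls (adjusted p = 0.0154, 5.80e-05 and 0.0111), where 1.05% were called. Mean levels over libraries there were near those of endothelial-like cells, but Fcgr3 reached 198 CPM in a mural-like library against 122 CPM at most in endothelial-like cells. Mural-like cells had 14 and 32 UMIs of Fcgr3 in the 2 Ctrl libraries and 4 to 12 in the 4 others. These calls too were lost when single libraries were left out, each of them without D2-2 or without Ctrl-3. The 9 microglial markers in mural-like cells summed to 1864 to 3903 CPM in Ctrl, 332 to 1036 CPM in D0 and 195 to 721 CPM in D2, and their part in these differences was not tested.

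Fcgr4 in microglia-like cells of D2-3, which the comparisons leave out, was 24.3 CPM before TMM scaling, above the highest Ctrl library (15.99 CPM). No group had enough libraries for a search for single libraries far from the rest.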

How the results depend on the processing

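In all 24 alternatives for D0 and 23 for D2, Fcgr4 was called higher in microglia-like cells (log2 0.79 to 1.47 and 0.91 to 1.60), and Fcrls was called lower in all 23 for D2 (-1.35 to -1.05). Fcrls lost its D0 call in 5 of 24 (-0.81 to -0.42), and Fcgr2b lost its D2 call in 6 of 23 (0.31 to 0.88), including one with no upper UMI limit. Fcer1g gained a D0 call with DESeq2 and with the replicate block. The number of receptors called in D0 fell from 2 to 1 with D2-3 and with a term for Cell Ranger version, and was 1 to 2 with 1 library left out.

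Genes called in D0 (2411) were 426 with D2-3, 1306 with the version term, 1348 after thinning, 1206 in non-dividing cells, 3864 with library totals, 1473 in cells without neutrophil or monocyte marker UMIs and 1157 to 2517 with 1 library left out. In D2 (2185) they were 1193, 1044, 1362, 1315 and 1203 in the same order without the library totals, and 960 to 2931 with 1 library left out. Between D2 and D0 (0) they were 25 with DESeq2, 30 without a filter on low counts and 0 to 1 with 1 library left out. In other classes the 2 calls became 4 with DESeq2, 4 with the replicate block, 0 with at least 10 cells per library and 1 to 6 with 1 library left out. The 9 differences between classes became 5 with D2-3 and 3 to 15 with 1 library left out, both added after the data were seen. No fit between D2 and Ctrl could be made for neutrophil-like cells without microglial marker UMIs, since Ctrl had 35 such cells.

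Changes near 0 turned their sign. Fcgr1 in D0 was 0.14 with the version term. Fcgr3 in D0 was 0.015 with DESeq2 and 0.015 with RLE scaling, 0.0047 with D2-3, 0.14 with the version term, 0.0028 with only the 2 groups in the fit, 0.076 after thinning, 0.14 in non-dividing cells and 0.022 in cells without neutrophil or monocyte marker UMIs, and lay between -0.15 and 0.16 with 1 library left out. Fcgr3 in D2 was -0.087 with the replicate block, -0.30 with D2-3, -0.012 with no upper UMI limit, -0.029 in all kept myeloid cells and -0.085 with library totals, and between -0.16 and 0.23 with 1 library left out. Fcer1g in D2 was -0.031 with library totals and between -0.0039 and 0.19 with 1 library left out. Between D2 and D0, Fcgr2b was -0.064 with D2-3, and Fcgr3 was -0.060 with the replicate block, -0.30 with D2-3 and between -0.15 and 0.22 with 1 library left out. The cause of these changes was not tested.

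The log2 difference in ratio kept its sign in all alternatives, -0.45 to -0.32 for D0, -0.75 to -0.43 for D2 and -0.38 to -0.06 between them. The D2 and D0 libraries overlapped after thinning, with no upper UMI limit, in all kept myeloid cells and with Fcgr3 alone over Fcgr2b (exact p = 0.4 for each), and also with D2-3. With the replicate block the difference was -0.37 (exact p = 0.25), -0.69 and -0.32 (exact p = 0.5 for both), the smallest p these pairs allow. The block changed no other call in microglia-like cells than that of Fcer1g. The p of 2 or 3 libraries per group, and classes of under 100 cells per library, limit what could be detected.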
